A study of Mus musculus with 2 samples.

Results

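Isolated broad peaks are the wide regions of PHF19 recovery that stood alone on the chromosome. They were selected on the authors' peak list by 2 measured values, a width of at least 2000 bp and the absence of any other listed peak within 10000 bp, edge to edge. The rule gave 495 of the 3445 peaks of the list (14.4%). Of the 975 peaks at least 2 kb wide, 480 had a neighbour within 10 kb, and of the 2044 peaks without such a neighbour, 967 were 1 to 2 kb wide and 582 were narrower than 1 kb. Both libraries came from E14, a pluripotent mouse embryonic stem cell line grown on gelatin with the cytokine LIF. One library held sonicated chromatin DNA recovered with a custom rabbit polyclonal antibody against PHF19, and the other held input DNA of that line, for which no antibody was used. There was 1 library per group, so no difference below has a replicate check, no p-value is given, and all intervals are 95% intervals for counting error only. The antibody had no specificity control among these samples, so enrichment is enrichment of what it recovered.

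PHF19 (also called PCL3) is a Polycomb-like protein that associates with PRC2, the complex that trimethylates lysine 27 of histone H3. Its Tudor domain binds the H3K36me3 mark found over transcribed genes, and the series was titled for that property and for PRC2 recruitment during differentiation. In embryonic stem cells PRC2 is known to occupy CpG-rich promoters of silent developmental genes, often as broad domains. Peaks were not assigned to genes, and coordinates refer to build mm8 and count from 1.

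The list was built from the same ChIP reads, so width and read density inside the peaks chose the members and are described without a test. Widths ran from 2000 to 36749 bp with a median of 2498 bp. Close to the limit lay 248 peaks under 2.5 kb, while 22 were at least 5 kb wide. The 3 peaks at the limit, all 2000 bp wide, had folds of 2.61, 2.13 and 3.07, where fold is the share of distinct ChIP reads divided by the share of distinct input reads. The 3 isolated peaks just under it, 1997, 1991 and 1989 bp wide, had folds of 3.92, 4.77 and 3.67. At the limit of isolation, peaks with gaps of 10117 and 10182 bp had folds of 5.33 and 4.44, and peaks left out with gaps of 9763 and 9678 bp had 3.09 and 4.42. In these few peaks the folds were lower just inside the width limit than just outside it, but their counting intervals overlapped, so the order is not resolved. Intervals also overlapped at the limit of isolation, where 4.44 and 4.42 nearly coincided. Over whole classes, peaks of 2 kb or more with a neighbour within 10 kb had the larger median fold, 4.58 against 3.81.

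Most members were far from any other peak. The median gap to the nearest peak was 222 kb among the 494 with another peak on the same chromosome. A neighbour lay within 50 kb of 102 members (20.6%) and none lay within 1 Mb of 60 (12.1%). Among chromosomes with at least 50 peaks, members made up the largest share on chromosome 8 (35 of 157 peaks, 22.3%) and the smallest on X (2 of 51, 3.92%). Chromosome 11 carried the most, with 50 members or 0.411 per Mb. It also held 290 listed peaks, 2.38 per Mb, and members were 17.2% of them, near the 14.4% of the whole list.

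Together the 495 peaks held 75473 distinct ChIP reads and 25308 distinct input reads, 0.344% and 0.103% of the libraries. A single member held a median of 121 ChIP reads (64 to 5333) and 37 input reads (13 to 2942). The pooled fold was 3.33 (3.28 to 3.37). The median of the single folds was higher, 3.81, with quartiles of 3.14 and 4.59 and a range of 1.34 to 8.24. The pooled value lay below the median, since peaks with many input reads carry more weight in it. The single widest member held 7.07% of the members' ChIP reads and 11.6% of their input reads, and without it the pooled fold was 3.50 (3.45 to 3.55).

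A fold of at least 2 was found in 480 members (97.0%), against 98.6% of all peaks on the list. A fold of at least 4 was found in 212 (42.8%), against 40.6% of all peaks. Both shares lay near those of the whole list. The lower end of the counting interval was above 2 in 402 members (81.2%), and above 1 in all 495, a property that the selection on these reads itself favours. It also depends on the number of reads, with a median of 121 ChIP reads in members and 56 over all peaks. The same share over all peaks was not counted, so it does not set the members apart.

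**Figure D1:**
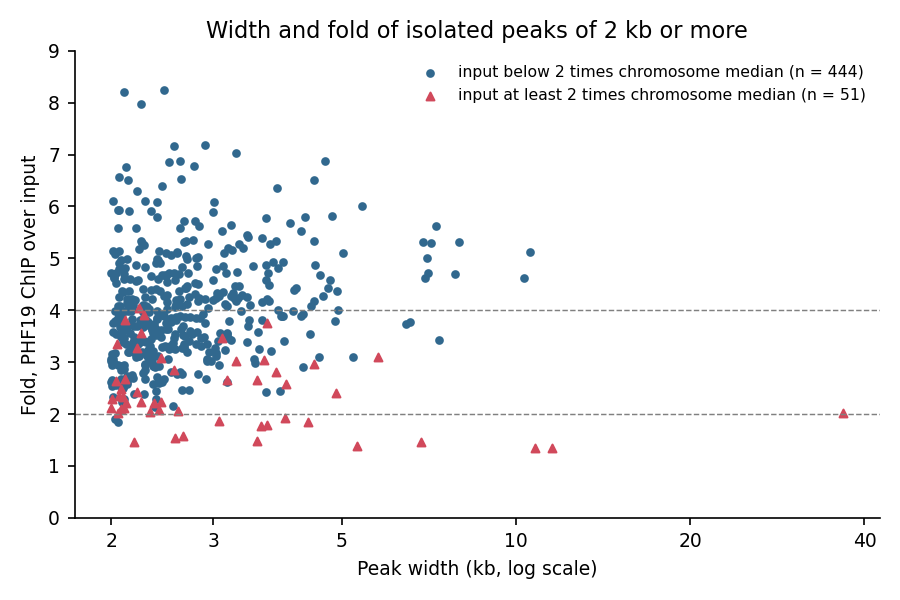
Fold of PHF19 ChIP over input (vertical axis) against peak width in kb (horizontal axis, log scale) for the 495 isolated peaks of 2 kb or more, with dashed lines at folds of 2 and 4. Circles are the 444 peaks with input density below 2 times the chromosome median and triangles the 51 at or above it; the peaks with folds below 2 are nearly all triangles.

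The member with the highest authors' score, 3100, was the widest one, a peak of 36749 bp on chromosome 6 with a fold of only 2.02 and an input density of 8.90 times the chromosome median, described with the members of raised input. The 9 next in score were long domains on several chromosomes with folds of 4.61 to 6.01. The score is the authors' own, and across the 495 members it rose with width (Spearman's rho 0.56) and with fold (0.75), which come from the same reads. At chromosome 5, 33746342 to 33753632, 478 reads in the ChIP and 95 in the input gave a fold of 5.61 (4.50 to 7.07). The peak at chromosome 19, 16936901 to 16944866, held 439 and 92 reads, a fold of 5.32 (4.24 to 6.74). These domains were 7291 and 7966 bp wide, and their input density was 1.30 and 1.28 times the median of their chromosome.

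The widest members with ordinary input lay on chromosomes 5 and 15. At chromosome 5, 28788473 to 28799051, a domain of 10579 bp had 509 reads in the ChIP and 111 in the input, and its fold was 5.12 (4.16 to 6.34). At chromosome 15, 35237525 to 35247843, 525 and 127 reads over 10319 bp gave 4.61 (3.79 to 5.64). Their input densities, 1.05 and 1.37 times the chromosome median, were unremarkable among the members. In both domains the densest stretch lay near the left end, 4.5 kb and 4 kb from the centre.

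Further high-scoring domains had folds between 4.62 and 6.01. Chromosome 2, 31456851 to 31464704, had 438 reads in the ChIP and 104 in the input (fold 4.70, 3.79 to 5.88), and another listed peak lay 10899 bp away. Chromosome 15, 85403584 to 85410615, held 395 and 88 reads (5.01, 3.97 to 6.38). Chromosome 11, 112596749 to 112602170, held 264 and 49 reads (6.01, 4.42 to 8.33). Chromosome 5, 147496276 to 147503252, held 344 and 83 reads (4.62, 3.63 to 5.95). Chromosome 17, 8637270 to 8642088, held 245 and 47 reads (5.82, 4.24 to 8.13). The intervals of these 5 domains overlapped, so their order by fold is not resolved at this depth.

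**Figure D2:**
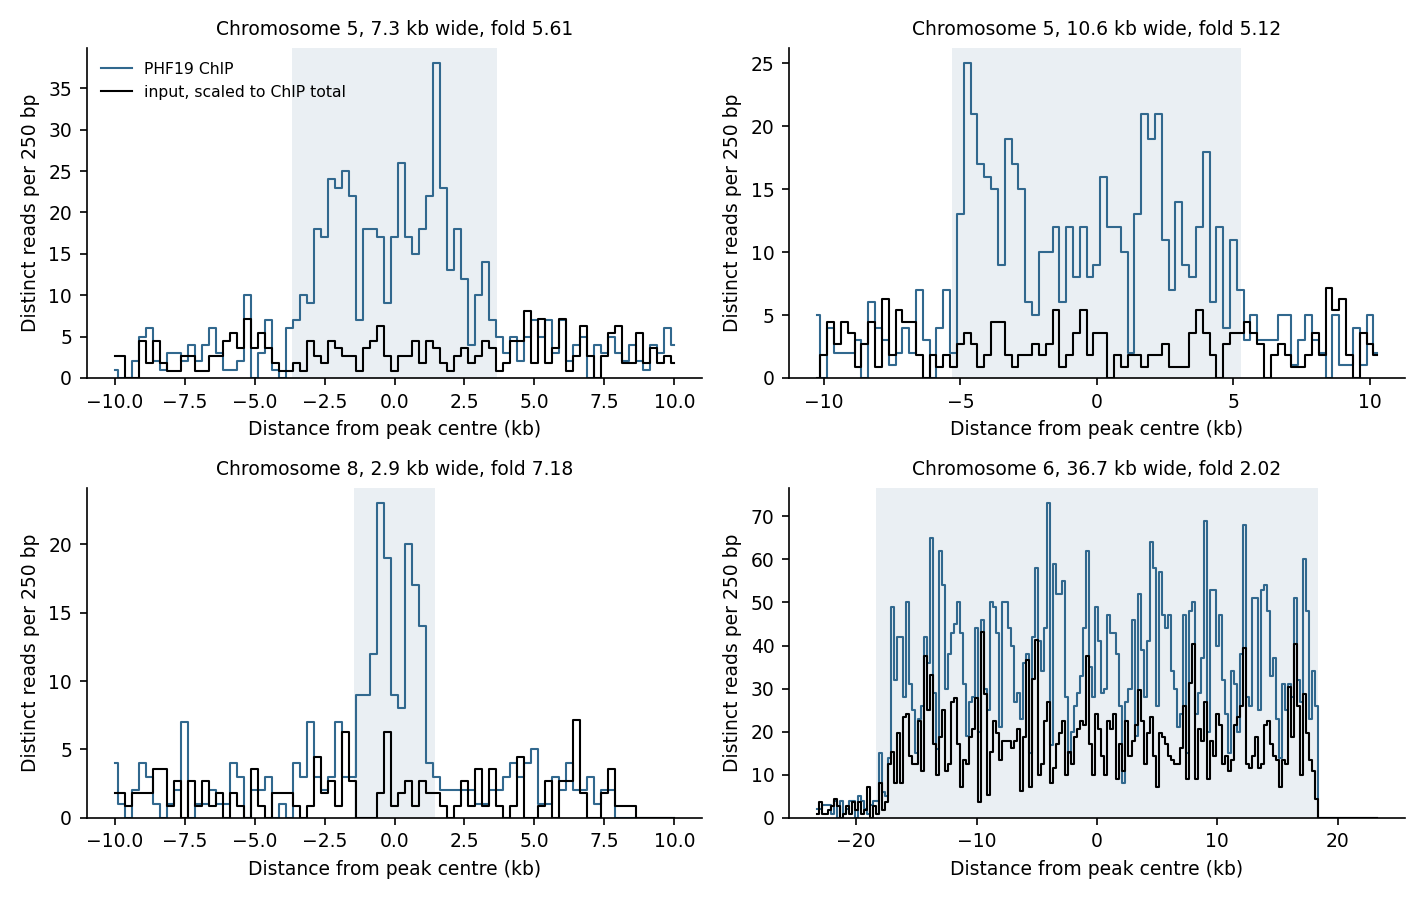
Distinct reads per 250 bp step (vertical axis) against distance from the peak centre in kb (horizontal axis) for 4 members, with ChIP in blue, input scaled to the ChIP total in black, and the peak body shaded. In the 3 peaks on chromosomes 5 and 8 the median input count per step inside the body was 2 or 3 and that of the ChIP 12 to 17, while in the 36.7 kb peak on chromosome 6 both libraries were high (medians of 35 ChIP and 19 input reads).

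The largest folds among members with at least 20 input reads belonged to peaks of 2517 to 4681 bp, narrower than the high-scoring domains above but all wider than the median member. The first, at chromosome 8, 34348569 to 34351476, reached 7.18 (4.61 to 11.7) from 148 reads in the ChIP and 23 in the input. Next came chromosome 1, 69038464 to 69041748, with 145 and 23 reads (7.03, 4.51 to 11.4), and chromosome 17, 44196892 to 44201572, with 253 and 41 (6.88, 4.93 to 9.83). Chromosome 11, 92914142 to 92916658, held 123 and 20 reads (6.86, 4.26 to 11.6), and chromosome 9, 16250296 to 16253072, held 152 and 25 (6.78, 4.42 to 10.8). All 5 had an input density below the chromosome median, from 0.722 to 0.900 times, and the wide intervals overlapped throughout. Their ChIP reads per kb, 44.1 to 54.7, lay within or just above the quartiles of all members (41.0 and 52.4). Larger ratios rested on fewer than 20 input reads, up to 8.24 (4.60 to 16.0) at chromosome X, 98051031 to 98053495, with 96 reads in the ChIP and 13 in the input. That peak was chosen after its value was seen.

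Fold among members had a larger rank correlation with the input than with the ChIP density, a difference that the selection itself favours. Across the 495 members, Spearman's rho of fold was −0.79 with input reads per kb and 0.41 with ChIP reads per kb, and ChIP and input density had a rho of 0.15 with each other. Fold is computed from both densities, so the first pair of coefficients is partly built in, and members share the same 2 libraries. Members were also selected on ChIP reads, which limits the spread of ChIP density. Input counts were smaller (median 37 against 121 reads per member) and so noisier. The size of these effects was not tested. ChIP density had quartiles of 41.0 and 52.4 reads per kb around a median of 46.1, and input density 11.9 and 16.2 around 13.9. Of the 23 members with a fold of at least 6, 18 had an input density below the chromosome median, against 37 of all members, which division by the input favours.

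Input was raised in the members themselves. Their median input density was 1.48 times the median of 1 kb bins on the same chromosome, with quartiles of 1.25 and 1.73, and 458 of 495 lay above 1. Over the whole list the median was 1.33 times, and 2783 of 3445 peaks lay above 1. In isolated peaks of 1 to 2 kb it was 1.44 times, and 849 of 967 lay above 1. Input density in the body also exceeded that of the member's own flanks at 5 to 10 kb in 397 members (80.2%), against 65.5% of all peaks, and the median ratio of body to flank was 1.25. The corresponding medians were 1.23 times in isolated peaks of 1 to 2 kb and 1.05 times in narrower isolated ones. In the 444 members without strongly raised input, it stood at 13.9 reads per kb in the step 750 to 1000 bp inside the edge, fell to 11.0 just outside it, and was 11.1 in the last step before 10 kb. The rule did not use the input library, but the sources used here do not say whether the authors called peaks against it.

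**Figure D3:**
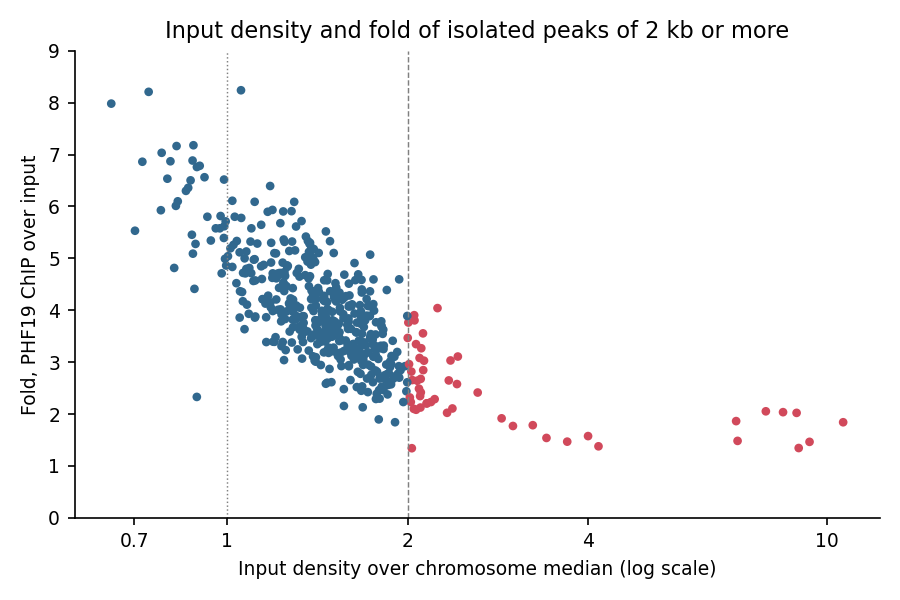
Fold of PHF19 ChIP over input (vertical axis) against input density of the peak relative to the median of its chromosome (horizontal axis, log scale) for the 495 members, with lines at 1 and 2 times the median. Red points are the 51 members at or above 2 times the median; fold falls as input density rises (input is part of both axes), and the 8 members at 7.05 times or more form a separate group with folds of 1.34 to 2.05.

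Input at or above 2 times the chromosome median was found in 51 members (10.3%), compared with 7.17% of all peaks (247 of 3445). The share was nearly the same in isolated peaks of 1 to 2 kb, 9.93% (96 of 967). The pooled fold of the 51 members was 2.002 (1.95 to 2.06), against 3.995 (3.93 to 4.06) in the other 444. They included 13 of the 15 members with a fold below 2, and 1 of the 212 with a fold of at least 4. Most were only modestly raised, 38 of them to under 3 times the median. At 7.05 to 10.6 times stood 8 members, which held 11.4% of the members' ChIP reads and 20.6% of their input reads. The part of this raised input in the folds of single members was not tested.

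The largest of these by reads was the widest member, at chromosome 6, 47580016 to 47616764, where 5333 reads in the ChIP and 2942 in the input gave a fold of 2.02 (1.93 to 2.12), with an input density of 8.90. Neither library had a read in the 2 kb to its right, which was also true of one flank of the peak at chromosome 8, 56611746 to 56622537. That second peak held 1050 and 871 reads, for a fold of 1.34 (1.23 to 1.47) and an input density of 8.97. The highest input density, 10.6 times, was found at chromosome 15, 91733990 to 91738356, with 690 and 418 reads and a fold of 1.84 (1.63 to 2.08). At chromosome 9, 123773024 to 123775216, 269 and 205 reads gave 1.46 (1.22 to 1.76) at 9.35 times.

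Other members with small folds also had raised input. At chromosome 17, 14725560 to 14730873, the fold was 1.38 (1.15 to 1.65) from 273 and 221 reads. At chromosome 6, 114464515 to 114471382, it was 1.47 (1.23 to 1.75) from 300 and 228 reads. The smallest fold of all, 1.34 (1.18 to 1.52), belonged to a peak of 11527 bp on Y_random, from 823847 to 835373, with 535 reads in the ChIP and 445 in the input. There the plus strand held 88.0% of the ChIP and 78.0% of the input reads, whereas the median member had 50% in both libraries. A plus-strand share of at least 60% in the ChIP was found in 10 members and one of at most 40% in 6, and 6 of these 16 had raised input.

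The relation of pooled fold to width depended on the members with raised input. Over all 495 the pooled fold had no steady trend. It was 3.48, 3.78, 3.65 and 3.54 from the narrowest band to that of 4 to 6 kb. In the 17 members of 6 kb or more, 4 of which had raised input, it was 2.43 (2.352 to 2.504). The median of the single folds was larger in each wider band over all 495, at 3.64, 3.87, 4.11, 4.23 and 4.62. Spearman's rho between width and fold was 0.19 over all 495. Without raised input the pooled fold was also larger in each wider band. Among the 444 members without strongly raised input, the pooled fold was 3.70 (3.60 to 3.80) for the 223 peaks of 2 to 2.5 kb. It was 3.98 (3.84 to 4.13) for the 102 of 2.5 to 3 kb, 4.12 (3.97 to 4.28) for the 78 of 3 to 4 kb and 4.45 (4.22 to 4.70) for the 28 of 4 to 6 kb, and 4.68 (4.40 to 4.98) for the 13 of 6 kb or more. The share with a fold of at least 4 went from 37.2% in the narrowest band to 76.9% in the widest. Median ChIP density went from 43.7 to 53.6 reads per kb in the fourth band and stood at 51.5 in the widest. Fold varied widely within each band, and across these 444 peaks Spearman's rho between width and fold was only 0.26. Width was drawn by the peak caller from the same reads, so this describes the list.

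**Figure D4:**
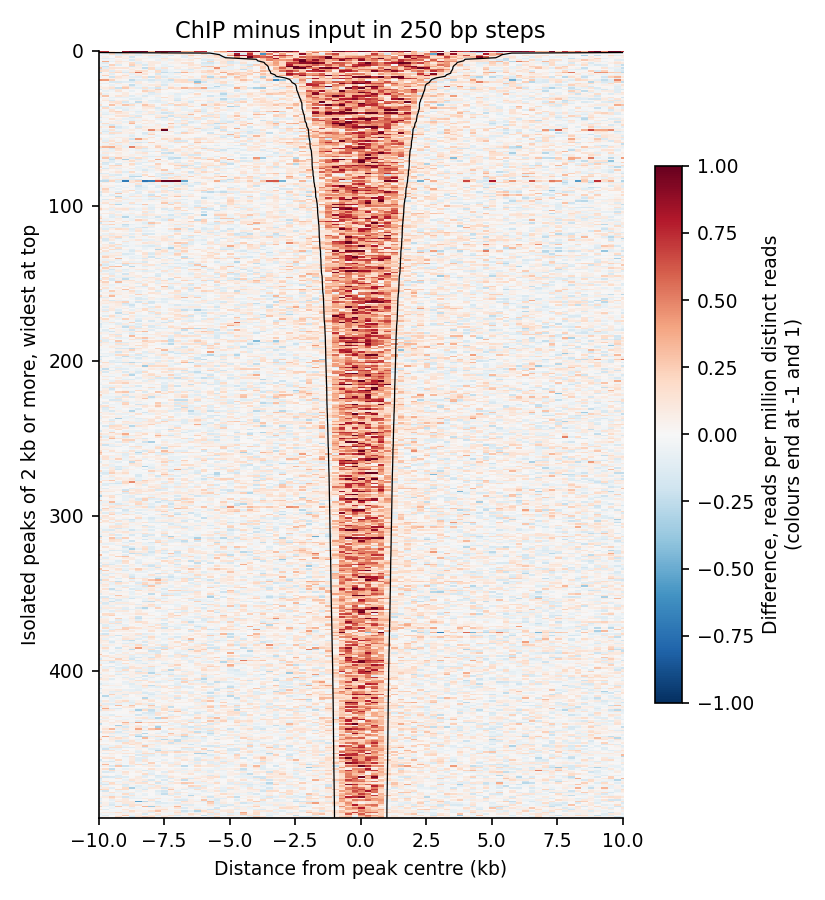
ChIP minus input in reads per 1000000 distinct reads per 250 bp step (colour, cut at −1 and 1) against distance from the peak centre in kb, 1 row for each of the 495 members with the widest at the top; black lines mark the peak edges. The ChIP excess covers most of the body in most members and ends close to the edges, with a faint excess beyond them.

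Inside the body the signal formed a plateau with lower ends. When each body was divided into 5 equal parts, the pooled fold from left to right was 2.79 (2.70 to 2.89), 3.64 (3.53 to 3.76), 3.75 (3.63 to 3.86), 3.69 (3.57 to 3.81) and 2.73 (2.64 to 2.82). The 3 inner parts overlapped in their intervals and the 2 outer ones did too. The middle part stood 1.36 times (1.30 to 1.41) above the outer ones. Without raised input all levels were higher, at 4.53 (4.37 to 4.71) in the middle and 3.27 (3.14 to 3.40) and 3.23 (3.10 to 3.36) at the ends.

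Most steps of the body reached a fold of at least 2 in most members. A median of 88.9% of the 250 bp steps of a body had a fold of at least 2. Every such step did in 127 members (25.7%), whereas 17 members had fewer than 50% of steps at that level. These shares were not counted in other peaks or in windows far from peaks, so they do not set the members apart. Single steps hold few input reads, so each call is uncertain, and a wider body has more steps that must all pass. No step of any body was without ChIP reads. The densest step, after smoothing over 3 steps, lay closer to the centre than to either edge in 396 members (80.0%). The grid of steps was centred and left out part of the ends in most bodies, and the edges were drawn from the same reads. Both favour a central position, and the share under an even spread was not computed. The densest step lay left of the centre in 232, right of it in 189 and at the centre in 74. Of tied steps the leftmost was taken, which favours the left, and ties were not counted.

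Reads were only mildly concentrated. The densest 500 bp of a member held a median of 1.49 times the ChIP reads of an even spread (quartiles 1.39 and 1.62). Choosing the densest stretch from few reads raises this value. When it was chosen on plus-strand reads and measured on minus-strand reads, a check added after the values were seen, the median was 1.24 (1.19 to 1.28). Only 5 members reached 2 times. A wider body offers more stretches to choose from and a higher ceiling, so concentration is not compared between widths.

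Among members with at least 100 ChIP reads, the most peaked was at chromosome 16, 35458266 to 35464040, at 2.27 times, where 351 reads in the ChIP and 126 in the input gave a fold of 3.11 (2.53 to 3.84) and the input was 2.42 times the median. Next were chromosome 13, 51578774 to 51582063, at 2.21 times (161 and 43 reads, fold 4.18, 2.97 to 5.99), and chromosome 14, 6033776 to 6036841, at 2.19 times (289 and 173 reads, fold 1.86, 1.54 to 2.26), where the input was 7.05 times the median. The flattest were chromosome 12, 85458839 to 85462387, at 1.23 times (144 and 54 reads, fold 2.98, 2.16 to 4.15), the peak on chromosome 9 from 16250296 described above at 1.24 times, and chromosome 3, 53742499 to 53745177, at 1.25 times (107 and 34 reads, fold 3.51, 2.37 to 5.33). High and low folds thus occurred in flat peaks.

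The edges were drawn from these same ChIP reads, which favours a drop there. The drop and the strand shares are therefore described without a test. Fold was 3.89 (3.76 to 4.03) at 750 to 1000 bp inside, 3.38 (3.26 to 3.50) at 250 to 500 bp inside, 2.25 (2.15 to 2.35) in the last step inside and 1.72 (1.64 to 1.80) in the first step outside. Narrower isolated peaks also dropped over the last 3 of these steps. Those of 1 to 2 kb had 3.64, 2.37 and 1.68, and those under 1 kb had 4.28, 2.97 and 1.52. The strands of unshifted 5′ ends were arranged in opposite ways at the 2 edges. In the first 250 bp inside the left edge the plus strand held 65.6% of the ChIP (64.0 to 67.2, exact binomial interval), and inside the right edge it held 36.6% (35.0 to 38.2). In the middle 500 bp the share was 50.3% (49.5 to 51.1). Input showed the same arrangement to a smaller degree, at 54.7% (52.2 to 57.1) and 46.3% (43.9 to 48.8). Just outside the edges the ChIP shares turned the other way, to 44.7% (42.5 to 46.9) on the left and 54.5% (52.2 to 56.7) on the right, while those of the input were 49.7% and 49.9%.

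Enrichment did not stop at the edges. Over both flanks together the fold was 1.40 (1.38 to 1.43) within 2 kb. It was 1.12 (1.11 to 1.14) from 2 to 5 kb and 1.07 (1.05 to 1.08) further out, to 10 kb. More than 100 kb from any peak it was 0.980 (0.979 to 0.981). Step by step, the flank fold was 1.48 (1.41 to 1.55) at 500 to 750 bp, 1.34 (1.28 to 1.41) at 1000 to 1250 bp and 1.22 (1.16 to 1.28) at 1750 to 2000 bp. The pooled fold first dropped below 1.1 in the step from 3750 bp (1.03, 0.981 to 1.09), but the step after it stood at 1.15 (1.09 to 1.21). Left and right flanks differed by less than their counting intervals, at 1.39 (1.36 to 1.43) and 1.41 (1.38 to 1.45) within 2 kb. Of all ChIP reads in excess of input between 10 kb left and 10 kb right of the members, 76.8% lay in the bodies and 12.5% within 2 kb of an edge.

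**Figure D5:**
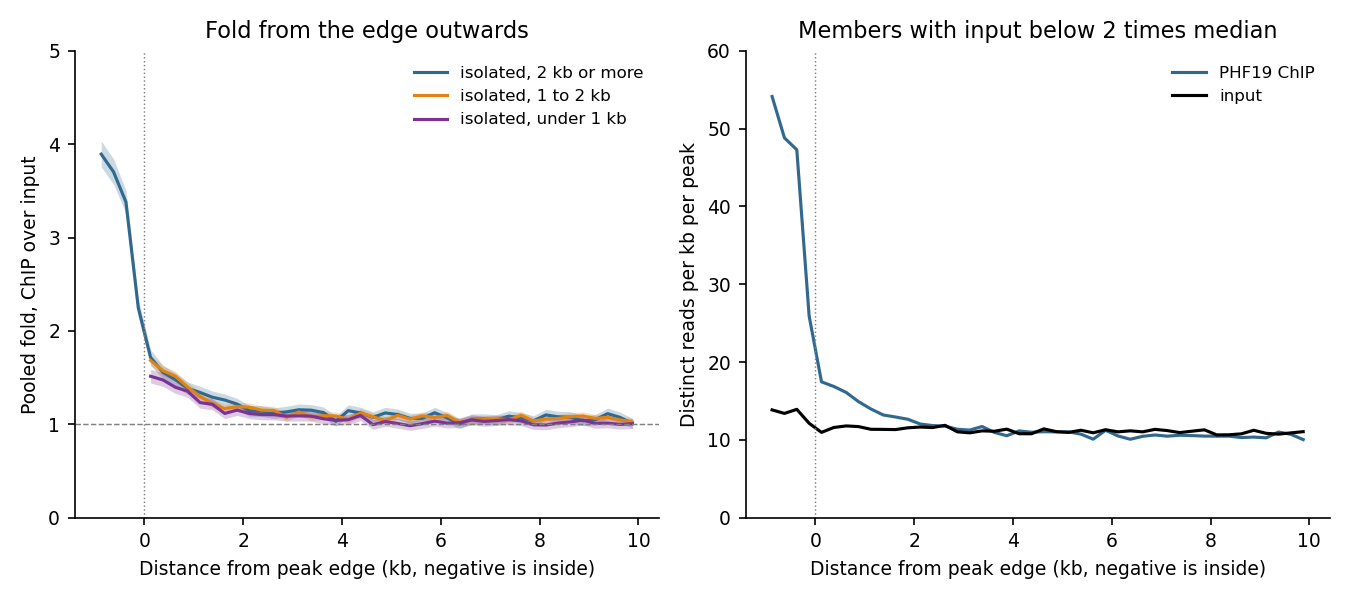
Left, pooled fold of ChIP over input in 250 bp steps (vertical axis) against distance from the peak edge in kb (negative is inside the peak) for the 3 width classes of isolated peaks (inside the edge only the broad ones are drawn), with bands for the 95% counting interval; right, distinct reads per kb per peak of both libraries over the same distances for the 444 members with input below 2 times the chromosome median. The ChIP drops from 54.1 reads per kb at 750 to 1000 bp inside to 17.5 just outside and to 12.7 at 1750 to 2000 bp, where the input stands at 11.6. Reads on the right are not scaled by library total, and the scaled fold at 1750 to 2000 bp was 1.22 (1.16 to 1.29).

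Single members differed in their flanks. The 2 kb flanks of both sides had a fold of at least 1.5 in 196 members (39.6%), against 5.23% of 530399 windows of the same total length (4 kb) over 100 kb from any peak with at least 10 input reads. The share was 38.7% in isolated peaks of 1 to 2 kb and 58.5% over all peaks, many of which have a neighbour in the flank, so it does not set the members apart from other isolated peaks of the list. Measured from 500 to 2500 bp outside the edge, a setting added after the data were seen that leaves out the steps next to the peak, 126 members reached it. In 37 members the fold within 2 kb was below 1. The body had a larger fold than these flanks in 493 of 495, and the near flanks had a larger fold than those at 5 to 10 kb in 417. Across members, Spearman's rho between the fold of the body and that of its 2 kb flanks was 0.28.

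The most extended signal was found at chromosome X, 129031765 to 129034305. Its body had 100 reads in the ChIP and 22 in the input, a fold of 5.07 (3.17 to 8.45), and its 2 kb flanks held 70 and 17 reads, a fold of 4.59, followed by 1.94 at 2 to 5 kb. The flanks of chromosome 8, 47790299 to 47794772, held 70 and 22 reads (3.55) beside a body of 204 and 35 reads (6.50, 4.53 to 9.59). Those of chromosome 14, 78501830 to 78506741, held 85 and 31 reads (3.06) beside a body of 266 and 68 reads (4.36, 3.33 to 5.78). In the members on chromosomes 8 and 14 the flank fold was down to 1.16 and 1.15 at 2 to 5 kb.

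The distance to the next peak was reflected in the far flanks. In the 444 members without strongly raised input, the fold at 5 to 10 kb was 1.12 (1.09 to 1.15) where another peak lay within 50 kb (88 peaks) and 1.02 (0.980 to 1.06) where none lay within 1 Mb (57 peaks). The bodies of these groups ran the other way, at 3.79 (3.65 to 3.93) and 4.25 (4.03 to 4.48). So did their flanks within 2 kb, at 1.39 (1.34 to 1.45) and 1.53 (1.45 to 1.62). The middle groups, with gaps of 50 to 200 kb and of 200 kb to 1 Mb, had 3.93 and 4.08 in the body. They had 1.43 and 1.44 within 2 kb, and 1.06 and 1.05 at 5 to 10 kb. Gap was a value used by the rule only through its limit of 10 kb.

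Compared with isolated peaks of 1 to 2 kb, the broad ones had a higher fold in the central 1 kb, 4.07 (3.96 to 4.17) against 3.56 (3.50 to 3.63), but the centre of the narrower peaks includes steps near their edges. The median of the single folds was also higher, 3.81 against 3.22, and 42.8% against 25.4% had a fold of at least 4. A narrower body has a larger part near its edges. Within 750 bp inside the edge the pooled fold of the broad ones was not higher at equal distance. The last step had 2.25 (2.15 to 2.35) against 2.37 (2.30 to 2.44). Folds were 3.38 (3.26 to 3.50) against 3.64 (3.54 to 3.74) at 250 to 500 bp. They were 3.70 (3.57 to 3.84) against 3.72 (3.62 to 3.82) at 500 to 750 bp. Without members of raised input the broad ones had 3.78 (3.64 to 3.94) at 250 to 500 bp and 4.06 (3.90 to 4.23) at 500 to 750 bp. The narrower class was not counted in that way. With all members kept, the broad ones were higher at 750 to 1000 bp, 3.89 (3.76 to 4.03) against 3.62 (3.52 to 3.72). In most of the narrower peaks, with a median width of 1382 bp, that step lies past the centre. Flanks were nearly the same, 1.40 against 1.38 (1.37 to 1.40) within 2 kb and 1.07 against 1.06 (1.06 to 1.07) at 5 to 10 kb. Flanks of isolated peaks under 1 kb were lower, at 1.31 (1.28 to 1.33) and 1.02 (1.01 to 1.03). Peaks of 2 kb or more with a neighbour within 10 kb had a larger median fold than the isolated ones, 4.58 against 3.81, and 69.2% of them had a fold of at least 4. This difference was present in each of the 4 width bands compared, up to 6 kb: 4.35 against 3.64 at 2 to 2.5 kb, 4.45 against 3.87 at 2.5 to 3 kb, 4.66 against 4.11 at 3 to 4 kb, and 4.75 against 4.23 at 4 to 6 kb. ChIP density was similar (medians of 49.0 and 46.1 reads per kb), whereas input density was lower in the grouped peaks, at 1.28 against 1.48 times the chromosome median. The values describe classes that the width and position of peaks had fixed, in 1 ChIP and 1 input library.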

How the data were processed

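Per the submitters' processing notes, reads of both libraries were aligned with Bowtie to mm8; the sources used here give no version. The authors deposited every aligned read as a line of 42 bases with its strand (23965625 ChIP and 26433784 input reads). Per the file headers the peak list comes from MACS, and its score per peak is the authors' own, used here only to rank peaks. The sources used here state neither the settings of the caller nor how reads that match several places were treated.

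Reads were kept once per 5′ position and strand, which left 21957101 ChIP and 24496988 input reads and removed 8.38% and 7.33% (in the members 5.46% and 4.29%). The 5′ ends were moved inwards by 54 bp, 0.5 of the strand lag of the input (108 bp); in the ChIP the largest lag was 41 bp, near the read length, and was not used. Counts per peak and per 250 bp step to 10 kb were scaled by the distinct reads of each library. An input count of 0 was set to 3 reads, which occurred in single steps of bodies and not in whole members. Intervals are at 95%: exact conditional binomial for folds, exact binomial for shares, order-statistic for medians, and log-normal for the ratio of the middle to the outer parts. PCR reads are not independent molecules, so intervals cover counting error only and may be too narrow. Input density is relative to the median of 1 kb bins that hold a read of either library.

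Regions named are the 10 members with the highest score, the 5 widest, 5 with the largest fold among those with 20 or more input reads, the 5 with the smallest fold, the 3 most and 3 least concentrated with at least 100 ChIP reads, and the 3 with the largest flank fold and input density each. The members and all lists were chosen with earlier results of these data known. Counting and intervals were tested on simulated data. Intervals used scipy 1.17.1, tables pandas 2.3.3 and numpy 2.4.6, and figures matplotlib 3.10.9, under Python 3.11.15.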

Additional observations from a re-analysis of the deposited data

How the results depend on the processing

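Of 100 alternative values, 66 stayed within the counting interval (or within 1.5 times for counts of peaks), 34 moved beyond it and 0 changed direction. The number of members depends on the rule: 861 at a width of 1500 bp and 141 at 3000 bp. The pooled fold of 3.33 became 3.995 without members of raised input, 3.50 without the widest member, 3.39 when scaled by bins far from peaks, 3.09 at 3000 bp, 3.38 with isolation at 5 kb, and 3.26 and 3.41 on plus and minus reads alone. The median fold of 3.81 became 3.93 without raised input, 3.63 at 1500 bp, 4.17 at 3000 bp and 3.98 on minus reads; at 3000 bp 78 members had a fold of at least 4. The flank fold within 2 kb, 1.40, became 1.44 without raised input, 1.43 with far scaling and 1.28 from 500 bp outside the edge; 40 members had a flank fold of at least 2, and 126 reached 1.5 from 500 bp outside. At 2 to 5 kb the fold of 1.12 became 1.11 with all reads, 1.15 with far scaling, 1.16 at 3000 bp, 1.14 with isolation at 5 kb, and 1.11 and 1.14 on plus and minus reads. At 5 to 10 kb, 1.07 became 1.09 with far scaling and 1.12 with isolation at 5 kb, which lets other peaks into the flank. The ratio of middle to outer parts was 1.30 at 3000 bp. Concentration, 1.49, was 1.45 at 1500 bp, 1.58 at 3000 bp, 1.58 with a sliding window and 1.24 when chosen and measured on different strands. The densest step lay 0.288 of the way from the centre to an edge, and 0.440 with 500 bp steps, a coarser grid. Median input density was 1.44 without raised input. The strand check, the removal of the widest member and of members on X, Y_random and Un_random, and 3 of the settings for flanks and raised input were added after the data were seen. No paired analysis was possible because each group has 1 library. The causes of the other shifts were not tested.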
